A study of Homo sapiens with 6 samples.

Results

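The YPEL genes (Yippee-like) encode a family of small human proteins, YPEL1 to YPEL5. Their transcripts were followed in T47D cells, a cell line from a luminal breast cancer, after inhibition of PI3 kinase. The members were every probe set, a group of short probes read as a single value, that names exactly 1 of these genes, with symbols brought up to date through the Entrez identifier. There were 11 such probe sets for 5 genes, of 54613 probe sets and 19775 genes in all. YPEL1 and YPEL2 had 3 probe sets each, YPEL3 and YPEL5 had 2 each and YPEL4 had 1, and 0 further probe sets named a YPEL gene together with another gene. The family was chosen with earlier results of the same comparison known, so its levels and differences are given as a description and were not tested.

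RNA came from 3 samples of T47D cells treated for 6 hours with GDC-0941, an inhibitor of the class I PI3 kinases, and from 3 control samples whose agent the labels give as none. All samples were grown in DMEM with fetal bovine serum, and whether the controls were given the solvent is not stated. The labels give the dose as 1 mM, a unit that may be a misprint for micromolar. Values are log2 signals from RMA, which makes the arrays comparable, so a difference of 1 is a 2-fold change, and each is relative to the rest of the array. Levels of different probe sets cannot be compared with each other, because probes differ in how strongly they bind.

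The Yippee domain is a compact fold that holds a zinc ion through pairs of cysteines, and it is found from yeast to humans. YPEL1 to YPEL4 are near copies of one another in protein sequence, while YPEL5 is the most distant member of the human family. YPEL3 is known to slow the growth of cells and to drive senescence, and its gene has been reported as repressed by oestrogen in breast cancer cells. YPEL5 binds the CTLH complex, a ubiquitin ligase with many subunits that marks proteins for degradation. PI3 kinase acts through the kinase AKT, which among other effects keeps the FOXO transcription factors out of the nucleus.

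The array medians lay between 7.34 and 7.38 on the log2 scale. Across probe sets, the correlation between arrays was 0.9970 to 0.9983 inside a group and 0.9917 to 0.9942 across groups, and no array stood apart. The 8 luminal markers checked averaged 12.12 (ESR1) to 14.30 (GATA3) under GDC-0941 and 11.62 (FOXA1) to 14.34 (KRT18) in controls. Calls were made at an adjusted p under 0.05 in limma over all genes with the deposited scaling. Of these markers 3 rose (ERBB3, FOXA1 and PGR), 2 fell (KRT8 and KRT18) and 3 did not pass. Over all genes, 12.1% passed as higher and 15.6% as lower. The 3 basal or mesenchymal markers (KRT5, KRT14 and VIM) averaged 6.09 to 8.03 under GDC-0941 and 6.25 to 8.20 in controls, and did not pass (limma adjusted p 0.0551 to 0.454). RMA gives no detection call, so it is not known which dim probe sets read their transcript. A change in all cells of a culture and a change in some of them cannot be told apart in such bulk RNA.

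All 11 YPEL probe sets were higher under GDC-0941, and in all 11 the 3 treated arrays lay above the 3 controls. Among all probe sets that separation was seen in 15.6%, and 47.1% had a difference above 0. The differences of the family ran from 0.21 to 1.57 on the log2 scale with a median of 0.38, against a median of -0.01 over all probe sets. The family was chosen from this comparison, so these counts describe its members and are not independent evidence of a direction.

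**Figure D1:**
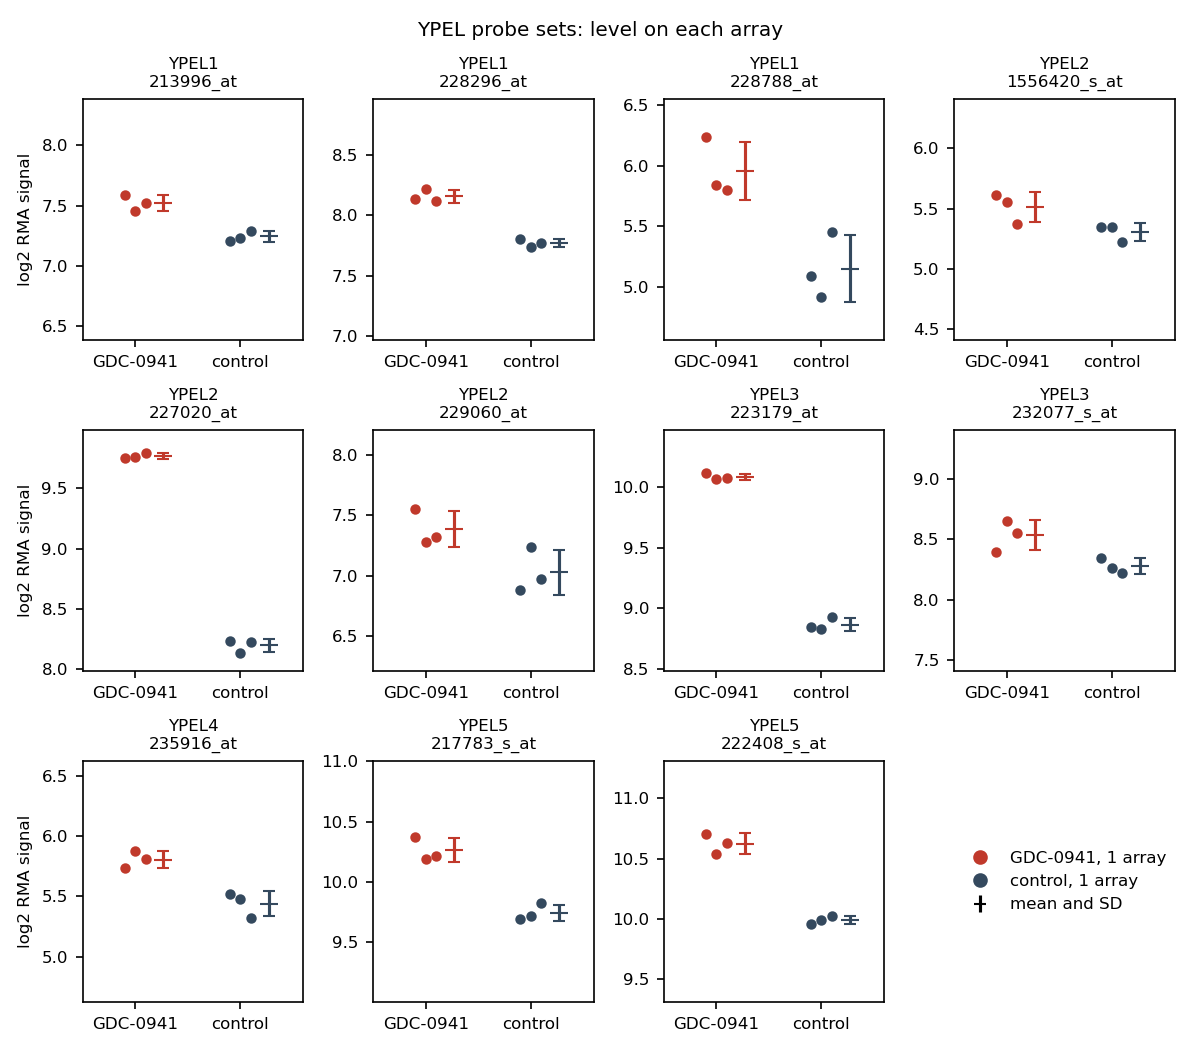
Level of each of the 11 YPEL probe sets on each array, in log2 RMA signal, with GDC-0941 arrays on the left and control arrays on the right of each panel. Points are single arrays and bars are the mean and SD of 3. Every panel spans 2 log2 units, so the distance between groups can be compared between panels, and the groups are farthest apart for YPEL2 227020_at and YPEL3 223179_at.

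YPEL2, which has been reported in human cells to join stress granules, had the largest difference of the family. Its probe set 227020_at read 9.75, 9.76 and 9.80 on the GDC-0941 arrays, against 8.24, 8.14 and 8.23 on the control arrays. The treated arrays lay close together and well apart from the controls, the lowest of them 1.51 above the highest control on the log2 scale. The mean was 9.77 ± 0.02 under GDC-0941 and 8.20 ± 0.05 in controls (SD, n = 3 each). The groups differed by 1.57 ± 0.06 (SE) on the log2 scale, or 2.96-fold. Ranked by the size of the rise, this probe set was number 14 of 54613.

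The other 2 YPEL2 probe sets had much smaller differences. Probe set 229060_at read 7.56, 7.28 and 7.32 under GDC-0941, against 6.88, 7.24 and 6.97 in controls, a log2 difference of 0.36 ± 0.10 (SE). Probe set 1556420_s_at read 5.61, 5.55 and 5.37 under GDC-0941, against 5.35, 5.35 and 5.22 in controls, a log2 difference of 0.21 ± 0.07 (SE). In both, the groups nearly touched: the lowest treated array was 0.04 and 0.03 above the highest control. The size of the YPEL2 difference thus rests on 1 of its 3 probe sets, with the others pointing the same way. Which stretch of the transcript each probe set reads is not known from the annotation used here. Levels of 1556420_s_at lay below the array medians of 7.34 to 7.38, and whether it reads the transcript is not known.

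YPEL3, the growth suppressor, came second. Its probe set 223179_at read 10.12, 10.07 and 10.08 under GDC-0941, against 8.84, 8.83 and 8.92 in controls. The mean was 10.09 ± 0.02 under GDC-0941 and 8.86 ± 0.05 in controls (SD, n = 3 each). The groups differed by 1.22 ± 0.06 (SE) on the log2 scale, or 2.34-fold, which was rank 41 of 54613. The lowest treated array was 1.15 above the highest control. Probe set 232077_s_at of the same gene read 8.40, 8.65 and 8.55 under GDC-0941, against 8.35, 8.26 and 8.22 in controls, a log2 difference of 0.26 ± 0.07 (SE), and its groups were 0.05 apart. Like YPEL2, YPEL3 had 1 probe set with a difference over 2-fold and another with a small one (1.20-fold). YPEL2 227020_at and YPEL3 223179_at were the only 2 YPEL probe sets at or above 2-fold, a size that 101 of all probe sets (0.185%) reached.

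The promoters of both genes are shown because they had the largest differences in the family. Each runs from 250 bases before the annotated transcription start to 50 after it, 5′ to 3′ on the gene's strand, from RefSeq on build GRCh38.p14, and capitals mark a match to a searched motif. The YPEL2 window is chr17:59331405-59331704 on the plus strand and the YPEL3 window is chr16:30096164-30096463 on the minus strand.
YPEL2: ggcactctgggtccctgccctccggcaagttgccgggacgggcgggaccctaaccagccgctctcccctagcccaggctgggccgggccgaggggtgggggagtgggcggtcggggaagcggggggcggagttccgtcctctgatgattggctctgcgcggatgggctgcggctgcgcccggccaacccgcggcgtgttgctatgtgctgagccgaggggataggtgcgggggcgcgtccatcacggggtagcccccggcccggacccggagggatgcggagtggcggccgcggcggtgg
YPEL3: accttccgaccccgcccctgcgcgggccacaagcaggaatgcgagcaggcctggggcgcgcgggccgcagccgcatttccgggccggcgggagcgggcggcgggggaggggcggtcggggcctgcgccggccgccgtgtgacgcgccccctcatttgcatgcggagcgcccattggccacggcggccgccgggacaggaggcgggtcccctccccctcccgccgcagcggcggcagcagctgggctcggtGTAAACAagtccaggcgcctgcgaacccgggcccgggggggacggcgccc

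The motifs searched on both strands were GTAAACA and GTAAATA, which FOXO factors bind, and CACGTG, the E-box bound by MYC and TFEB. GTAAACA occurs once in the YPEL3 window, at bases 251 to 257, so it begins at the annotated start. The window of the divergent transcript YPEL3-DT shares these bases and holds the same match on the other strand, at its bases 28 to 34. GTAAACA is present in 3.42% of the 35116 promoters of that length in the table, GTAAATA in 2.67% and CACGTG in 7.26%. None of the 3 motifs occurs in the windows of YPEL2, YPEL4 or YPEL5, and the YPEL1 window was not analysed here. The match is a string of letters and not a shown binding site, and its absence elsewhere says only that these letters are not in those windows. All 4 windows were rich in G and C: 75% in YPEL2, 79% in YPEL3, 62.3% in YPEL4 and 70% in YPEL5, against a median of 58.7% over all promoters in the table.

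YPEL5, the member that binds the CTLH ligase, was higher in both of its probe sets by similar amounts. Probe set 222408_s_at read 10.70, 10.54 and 10.63 under GDC-0941, against 9.96, 9.99 and 10.03 in controls. Its mean was 10.62 ± 0.08 under GDC-0941 and 9.99 ± 0.03 in controls (SD, n = 3 each). They differed by 0.63 ± 0.06 (SE) on the log2 scale, or 1.55-fold. The groups were clear of each other by 0.51 on the log2 scale. Probe set 217783_s_at read 10.38, 10.19 and 10.22 under GDC-0941, against 9.69, 9.72 and 9.82 in controls, a log2 difference of 0.52 ± 0.07 (SE), or 1.43-fold. The pair were 0.11 apart in their log2 differences, less than the range over the probe sets of YPEL1 (0.53), YPEL3 (0.97) or YPEL2 (1.36). RefSeq lists 4 pseudogenes of YPEL5, and whether these probe sets also read transcripts of them was not tested. The ending _s_at marks a probe set that the manufacturer designed to match several transcripts, as do 232077_s_at of YPEL3 and 1556420_s_at of YPEL2.

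YPEL1, first studied in mouse fibroblasts for its effect on cell shape, was higher in 3 of 3 probe sets. Probe set 228296_at, the one with the highest mean, read 8.14, 8.22 and 8.12 under GDC-0941, against 7.80, 7.74 and 7.77 in controls, a log2 difference of 0.38 ± 0.06 (SE), or 1.31-fold. Probe set 213996_at read 7.59, 7.45 and 7.52 under GDC-0941, against 7.21, 7.23 and 7.29 in controls, a log2 difference of 0.28 ± 0.06 (SE). The arrays within each group lay closer together in these 2 than the groups lay to each other. Probe set 228788_at read 6.24, 5.84 and 5.80 under GDC-0941, against 5.09, 4.91 and 5.45 in controls. Its log2 difference of 0.81 ± 0.14 (SE) was the largest of the gene and also the least precise in the family, with an SD of 0.24 under GDC-0941 and 0.27 in controls (n = 3 each). Probe set 228788_at lay below the array medians of 7.34 to 7.38, and whether it reads the transcript is not known.

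YPEL4 was read by a single probe set, 235916_at, which gave 5.73, 5.87 and 5.81 under GDC-0941, against 5.52, 5.48 and 5.32 in controls. Its mean was 5.80 ± 0.07 under GDC-0941 and 5.44 ± 0.10 in controls (SD, n = 3 each). They differed by 0.37 ± 0.07 (SE) on the log2 scale, or 1.29-fold. The groups were 0.21 apart. With 1 probe set, no second reading of this gene was available. Its levels lay below the array medians of 7.34 to 7.38, and whether the probe set reads the transcript is not known.

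**Figure D2:**
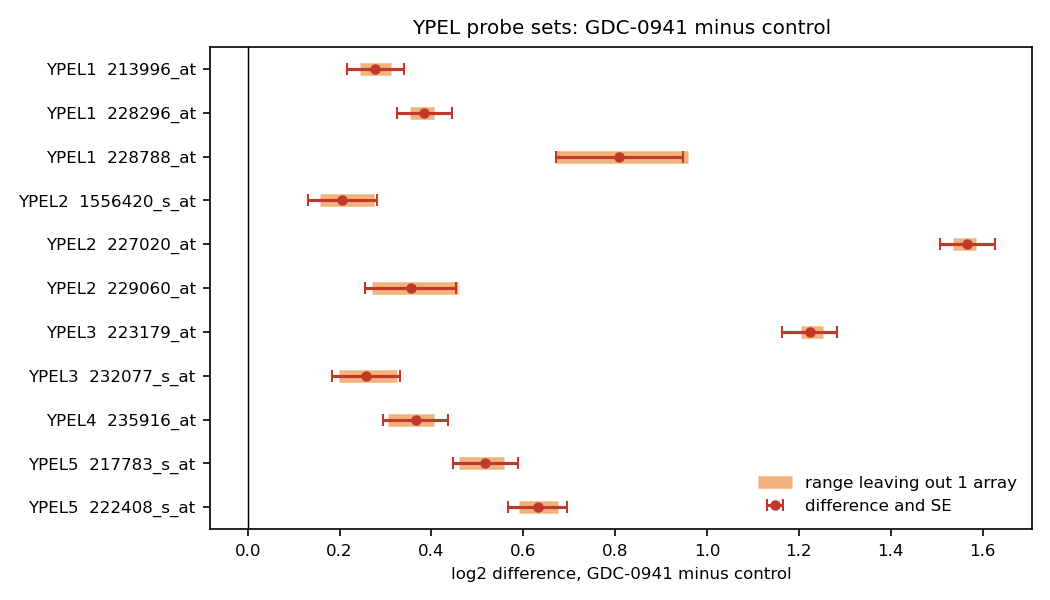
Log2 difference of each YPEL probe set, GDC-0941 minus control, with its standard error (points and bars) and the range of the difference when each of the 6 arrays was left out in turn (shaded). All points lie above 0, from 0.21 for YPEL2 1556420_s_at to 1.57 for YPEL2 227020_at, and probe sets of 1 gene differ most for YPEL2 and YPEL3.

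**Figure D3:**
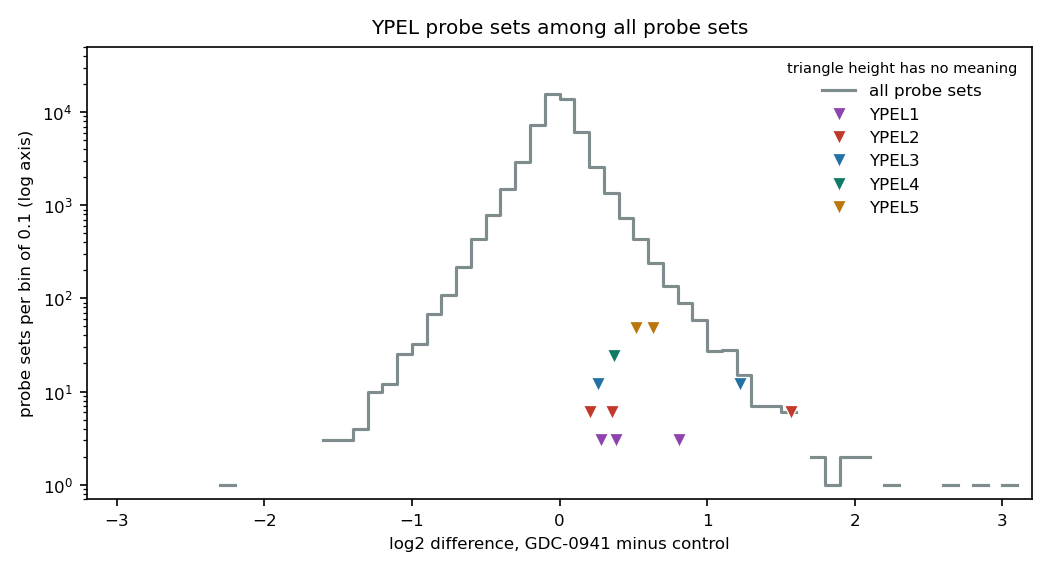
Number of probe sets (log axis) in bins of log2 difference, GDC-0941 minus control, for all 54613 probe sets, with the 11 YPEL probe sets marked as triangles. All YPEL triangles lie right of 0, and those of YPEL2 227020_at and YPEL3 223179_at lie in the sparse right tail.

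Since RMA sets the arrays to one scale, the differences were also taken after centring every array on its 18 hybridisation control probe sets. These read bacterial and phage sequences added at hybridisation. The centring was applied to the deposited RMA values, so it cannot show a change in total RNA. The 11 YPEL differences then lay between 0.38 and 1.74, without overlap of the groups in any of the 11, while the median of all probe sets was 0.16 in place of -0.01. Such centring moves every difference by the same amount, here upward, so it could not reverse any of the 11. YPEL2 227020_at differed by 1.74 and YPEL3 223179_at by 1.39 on the log2 scale. Over all genes that centring moved the calls to 5688 higher and 895 lower, against 2398 higher and 3090 lower with the deposited values.

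Likeness to other genes over the 6 arrays is given as a description, since any gene with a step between the 2 groups correlates with any other. For YPEL2 (227020_at) the 3 genes with the highest Pearson r over the 6 arrays were RIN2 (r = 0.9993), NHLRC3 (r = 0.9993) and CCNG2 (r = 0.9990). For YPEL3 (223179_at) they were ZKSCAN1 (r = 0.9997), UAP1L1 (r = 0.9995) and CCNG2 (r = 0.9993). CCNG2, which encodes cyclin G2, was named for both and differed by 1.93 on the log2 scale. For YPEL5 (222408_s_at) they were SH3BGR (r = 0.9998), JMY (r = 0.9994) and CUL4B (r = 0.9992). For YPEL1 (228296_at) they were TESK2, MGA and IKZF4 (r = 0.9961 to 0.9989), and for YPEL4 they were H2AC15, ANXA2R-OT1 and C10orf143 (r = 0.9925 to 0.9970). At a lower bar, r over 0.95, likeness was common: 1050 genes passed it with YPEL2, 1143 with YPEL3, 1420 with YPEL5, 557 with YPEL1 and 156 with YPEL4.

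Genes beside and around the family were taken from lists and tested in limma over all 19775 genes, with 1 probe set a gene, the one with the highest mean. At an adjusted p under 0.05, 12.1% of all genes passed as higher and 15.6% as lower, and the median log2 difference was -0.02. Where single probe sets of a gene are said to have passed, the fit was over all probe sets, of which 8.88% passed as higher and 9.89% as lower. Centring on hybridisation controls shifted that median upward by 0.17. The nearest measured gene on each side of each YPEL gene was taken from the order of genes in the RefSeq table, which gave 10 neighbours. Of these 2 rose, 0 fell and 8 did not pass, with a median of -0.01. Both that rose flank YPEL2 on chromosome 17. DHX40, a helicase of the DEAH-box type, read 11.82, 11.63 and 11.69 under GDC-0941, against 11.12, 11.15 and 11.27 in controls. It rose by 0.53 ± 0.07 (SE, limma adjusted p = 0.000129), and both of its probe sets passed. GDPD1, a phospholipase of the lysophospholipase D type, rose by 0.27 ± 0.07 (SE, limma adjusted p = 0.00836), in 2 of its 3 probe sets. YPEL2 227020_at, which lies between them on the chromosome, differed by 1.57.

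Next to YPEL3 on chromosome 16, the YPEL3 divergent transcript YPEL3-DT is read from the opposite strand, and 284 bases of its promoter window are shared with that of YPEL3. YPEL3-DT read 7.12, 7.13 and 7.10 under GDC-0941, against 7.19, 7.15 and 7.19 in controls, a log2 difference of -0.06 ± 0.05 (SE, limma adjusted p = 0.494). YPEL3-DT was read by 1 probe set and did not pass, beside differences of 1.22 for YPEL3 223179_at and 0.26 for YPEL3 232077_s_at. Whether the shared start region or the GTAAACA match bears on either transcript was not tested. The other neighbour, TBX6, a T-box factor, differed by 0.08 (limma adjusted p = 0.469). PPIL2 and PPM1F beside YPEL1 differed by -0.03 and -0.08, SERPING1 and CLP1 beside YPEL4 by 0.17 and -0.16, and ALK and LBH beside YPEL5 by -0.0005 and -0.01, and none of these 6 passed (limma adjusted p 0.079 to 0.997). For PPM1F, 3 of 4 probe sets passed as lower although the one with the highest mean did not.

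The CTLH ligase was examined because YPEL5 binds it. Of its 10 other subunits 5 rose, 0 fell and 5 did not pass, with a median log2 difference of 0.12 against -0.02 over all genes. With the fit limited to genes above the median level, which GID4 did not enter, 4 subunits rose and 2 fell. In that fit 2290 genes passed as higher against 2398 over all genes, so a larger share passed there. GID4, the subunit that recognises substrates by their first residues, read 8.33, 7.95 and 8.07 under GDC-0941, against 7.61, 7.44 and 7.54 in controls. It rose by 0.58 ± 0.09 (SE, limma adjusted p = 0.000418), in 1 of its 2 probe sets, and by 0.36 with both averaged. RANBP9, the scaffold to which YPEL5 was first found to bind, read 11.61, 11.48 and 11.50 under GDC-0941, against 11.20, 11.11 and 11.13 in controls. It rose by 0.38 ± 0.06 (SE, limma adjusted p = 0.000503), in 2 of its 4 probe sets, and by 0.18 with all 4 averaged. With unmarked probe sets taken first, RANBP9 was read by another probe set and differed by -0.070 (limma adjusted p = 0.539). That probe set averaged 5.13 under GDC-0941 and 5.20 in controls, and whether it reads the transcript is not known. The other RANBP9 probe sets differed by 0.38, 0.20 and 0.22, each with all treated arrays above the controls.

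Of the other CTLH subunits, 3 rose and 5 did not pass. RMND5A, a RING subunit of the catalytic core, rose by 0.31 ± 0.06 (SE, limma adjusted p = 0.00217), in 2 of 3 probe sets. WDR26, a scaffold subunit, rose by 0.29 ± 0.06 (SE, limma adjusted p = 0.00167) in the chosen probe set, but its probe sets disagreed, with 1 of 5 higher and 2 lower (differences of 0.29, -0.31 and -0.30), and their average differed by -0.053 (limma adjusted p = 0.470). RANBP10, the paralog of RANBP9, rose by 0.20 ± 0.06 (SE, limma adjusted p = 0.0229), in 1 of 4 probe sets, and lost the call with all 4 averaged (difference 0.09, limma adjusted p = 0.256) and without GDC-0941 replicate 1 or 3 or control replicate 2 (limma adjusted p 0.0612, 0.073 and 0.104). MAEA, the RING partner of RMND5A, differed by -0.15, RMND5B, its paralog, by -0.19, ARMC8 by -0.08, GID8 by 0.04 and muskelin (MKLN1), a substrate-receptor subunit, by -0.004, without passing (limma adjusted p 0.0617 to 0.977). A single probe set of 6 passed as higher for MKLN1 and 1 of 6 as lower for ARMC8. MAEA and RMND5B passed as lower with the values normalized by quantiles again, with a robust variance trend, with array weights, among genes above the median level and without GDC-0941 replicate 1 (limma adjusted p 0.00392 to 0.0489 for MAEA and 0.0121 to 0.0275 for RMND5B). After centring on hybridisation controls MAEA differed by 0.02 and RMND5B by -0.02 (limma adjusted p 0.904 and 0.856). With all probe sets of a gene averaged, 3 of the 10 subunits passed as higher and 0 as lower.

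Of 2 reported substrates of the ligase, HBP1, a repressor of cell cycle genes, rose and NMNAT1, an enzyme of NAD synthesis in the nucleus, did not pass. HBP1 read 10.57, 10.39 and 10.33 under GDC-0941, against 9.19, 9.31 and 9.34 in controls. It rose by 1.15 ± 0.07 (SE, limma adjusted p = 1.14e-06), and 2 of its 3 probe sets passed. The size rests on 1 of them, as the others differed by 0.33 and 0.15, and the average of the 3 by 0.54. With unmarked probe sets taken first, HBP1 rose by 0.33 (limma adjusted p = 0.0122). NMNAT1 differed by 0.13 ± 0.06 (SE, limma adjusted p = 0.122), with treated arrays that all lay above the controls. These are transcript levels, and the ligase acts on proteins.

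Transcripts of proteins outside the family that carry a domain of the same kind did not move together. Cereblon (CRBN), the receptor through which thalidomide acts, read 11.24, 11.05 and 11.17 under GDC-0941, against 10.46, 10.37 and 10.51 in controls. It rose by 0.71 ± 0.07 (SE, limma adjusted p = 1.57e-05), or 1.63-fold, and both of its probe sets passed. OIP5, a subunit of the Mis18 complex that prepares centromeres for CENP-A, fell by 0.23 ± 0.06 on the log2 scale (SE, limma adjusted p = 0.0181). Its call was lost without GDC-0941 replicate 2 or 3 or control replicate 2 (limma adjusted p 0.0598, 0.0505 and 0.0814) and after centring on hybridisation controls (difference -0.06, limma adjusted p = 0.635). MIS18A, its partner in that complex, differed by 0.01 (limma adjusted p = 0.949), while 1 of its 3 probe sets passed as lower.

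**Figure D4:**
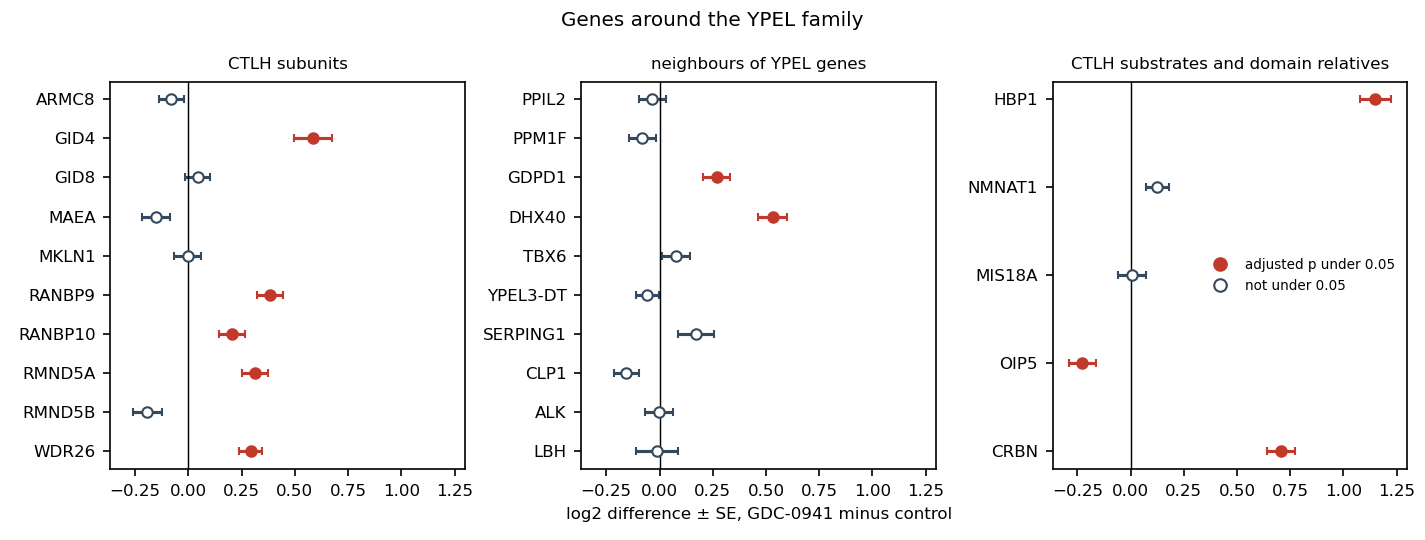
Log2 difference with its standard error, GDC-0941 minus control, for the 10 further CTLH subunits (left), the 10 neighbours of the YPEL genes (middle), and the 2 CTLH substrates with the 3 domain relatives (right). Filled points have a limma adjusted p under 0.05, and HBP1 (1.15), CRBN (0.71), GID4 (0.58) and DHX40 (0.53) lie farthest to the right.

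Since YPEL3 has been reported as repressed by oestrogen, genes that oestrogen induces were read as well. Of 12 oestrogen-induced genes 5 rose, 3 fell and 4 did not pass, with a median of 0.09. GREB1, a cofactor of the oestrogen receptor, rose by 0.68 ± 0.10 (SE, limma adjusted p = 0.000314), in 1 of 3 probe sets and by 0.25 with the 3 averaged, and PGR, the progesterone receptor, by 0.42 ± 0.05 (SE, limma adjusted p = 0.000117), while KCNK5, a potassium channel, fell by 0.37 ± 0.06 on the log2 scale (SE, limma adjusted p = 0.000376). The KCNK5 call was lost after centring on hybridisation controls (difference -0.20, limma adjusted p = 0.0853), where 6 of the 12 genes rose and 0 fell. ESR1, the oestrogen receptor, differed by -0.14 ± 0.06 (SE, limma adjusted p = 0.109), and 0 of its 9 probe sets passed in either direction. It passed as lower without GDC-0941 replicate 1 (limma adjusted p = 0.0404), with a robust variance trend (0.0223), with array weights (0.0113) and among genes above the median level (0.0385). After centring on hybridisation controls ESR1 differed by 0.03 (limma adjusted p = 0.832). Oestrogen-induced genes thus passed in both directions, 8 of 12 in all beside 27.8% of all genes. That share is over genes of every level. With the fit limited to genes above the median level, 5398 passed against 5488 over all genes, so a larger share passed there. In that fit 9 oestrogen-induced genes passed, 6 higher and 3 lower.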

How the data were processed

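Biotinylated cRNA was prepared from total RNA and read on an Affymetrix array, per the labels' protocols. The deposited table holds log2 RMA signals for 54675 probe sets, 62 of them manufacturer's controls. RMA is named in the submitters' processing notes, without a version or chip definition. That the scale is log2 was read from the range of values, 3.00 to 14.81.

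Of 54613 probe sets, the platform annotation names 1 gene for 41091, several for 1801 and none for 11721. For 41037, the Entrez identifier gave a current symbol in the RefSeq table of GRCh38.p14. The comparison, GDC-0941 minus control, used limma 3.58.1 (R 4.3.3; two-sided moderated test from lmFit and eBayes, Benjamini-Hochberg adjustment) over all probe sets and over 19775 genes with 1 probe set each. Standard errors are the moderated ones. No filter on dim probe sets was used. No label says that replicates are separate cultures, so the spread behind the p-values may be technical, and 3 arrays a group limit the precision.

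The members and lists were chosen with earlier results of these data known. Named were every YPEL probe set, every CTLH subunit and substrate, domain relative and neighbour, the 3 called oestrogen-induced genes with the largest difference, and the 3 genes most like each YPEL gene by Pearson r. A further planned list is not reported here. The labels state no pairing by replicate number, and none was used in the main fit. Deviations from the group means correlated at -0.344, 0.139 and -0.027 for numbers 1 to 3. Between different numbers they correlated at -0.363 to 0.354. With 3 arrays a group, these values cannot decide whether the samples were paired. Figures were drawn with matplotlib 3.10.9.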

Additional observations from a re-analysis of the deposited data

How the results depend on the processing

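All 11 YPEL probe sets kept their direction and their separation under centring on hybridisation controls or the array median, and under a repeated quantile normalization. Centring moves every difference by the same amount, 0.17 upward with hybridisation controls and almost nothing with the array median. It could therefore not reverse the direction of any of the 11. Leaving out an array could change neither direction nor separation, because the groups were already fully apart in all 11. It shows only how far the size of each difference varies. The replicate block gave 4932 called genes and 8514 called probe sets, against 5488 and 10251 without it. Array weights, whose estimate did not converge, gave 9411 called genes (4235 higher, 5176 lower) and 16901 called probe sets, 2 of 2 CTLH substrates and 5 of 10 neighbours (3 higher, 2 lower). An adjusted p under 0.01 left 6104 probe sets and 1 of 3 domain relatives. Centring on hybridisation controls moved the median of all genes to 0.152, against -0.017, and called 5688 genes higher and 895 lower, against 2398 and 3090, with 2 CTLH substrates, 1 domain relative and 4 neighbours, all higher. Quantile normalization again called 2 CTLH substrates, and averaging the probe sets of a gene called 3 CTLH subunits. With 1 array left out, 1 to 2 domain relatives passed.

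Medians near 0 changed sign, and so did 2 called genes. The neighbour median of -0.007 was 0.162 with hybridisation controls, 0.021 with unmarked probe sets first, and -0.026 to 0.038 with 1 array left out (above 0 without replicate 1 or 3 of either group). The median of the domain relatives, 0.008, was -0.017 with array weights, -0.152 with averaged probe sets and -0.052 to 0.060 with 1 array left out (below 0 without GDC-0941 replicate 1 or control replicate 3). RANBP9, a rise of 0.38, differed by -0.070 (limma adjusted p = 0.539) when unmarked probe sets came first. That setting read RANBP9 by another probe set, which averaged 5.13 under GDC-0941 and 5.20 in controls. WDR26, a rise of 0.29, differed by -0.053 (limma adjusted p = 0.470) with its probe sets averaged. For these 2 genes the sign changed with the probe sets that were read, and why those disagree was not tested.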
